A study of Homo sapiens with 6 samples.

Results

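The regions described here are the accessible sites that lie within 9 stretches of human chromosome 19 taken as KRAB zinc finger clusters. As the genes were placed here, 8 of them hold a run of more than 1 zinc finger gene, and the first holds only ZNF558. Joining the overlapping peaks of 6 ATAC-seq lists (1 bp or more) on the genome build hg19 gave 157560 regions, and 555 of them (0.352%) had their midpoint in one of the 9 stretches. The rest of chromosome 19 held 5518 regions. The stretches are called clusters A to I along the chromosome. Cluster A runs from 8.6 to 9.05 Mb, B from 9.4 to 9.95 Mb, C from 11.7 to 12.7 Mb, D from 19.8 to 24.3 Mb, E from 36.7 to 38.4 Mb, F from 44.3 to 45 Mb, G from 52.3 to 54.1 Mb, H from 56.5 to 57.28 Mb and I from 57.4 to 59.05 Mb. The members were chosen by position alone.

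The cells were ventricular-like cardiomyocytes that had been grown out of H9, a line of human embryonic stem cells, with a commercial differentiation kit and taken at day 15. ATAC-seq marks open DNA through cuts made by the Tn5 transposase, here on 50000 cells per replicate. The groups were 3 libraries of cells with knockdown of ZNF436, which encodes a KRAB zinc finger protein, and 3 control libraries, each from an independent differentiation of the same line. The sources used here do not say how the knockdown was made or what the controls received, and neither the level of ZNF436 nor the cardiomyocyte markers were checked in these lists.

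KRAB zinc finger proteins bind DNA through arrays of C2H2 zinc fingers. Their KRAB domain recruits the corepressor TRIM28, which brings in histone H3 lysine 9 methylation, and many of them bind transposable elements. Their genes arose by repeated tandem duplication, most of all on human chromosome 19, and their 3' exons are themselves known to carry H3 lysine 9 methylation while their promoters are commonly open.

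Named genes of these clusters include ZNF558 in A, ZNF177 and ZNF266 in B, ZNF44 and ZNF136 in C, and ZNF91 and ZNF93 in D, which repress SVA and L1 retrotransposons. Cluster E holds ZNF382, ZNF568 and ZFP30, F holds ZNF45 and ZNF224, and G holds ZNF83, ZNF160 and ZNF331. Cluster H holds ZNF471 and ZFP28, and I holds ZNF274, which recruits the methyltransferase SETDB1 to zinc finger genes. The genes were placed from general knowledge of the chromosome, and no region was matched to a gene. In the gene order of RefSeq on GRCh38.p14, the run from ZNF14 to ZNF254 in D has 36 protein-coding genes named ZNF or ZFP among 38, and that from ZIM3 to ZNF446 in I has 43 among 58. Those in B (ZNF699 to ZNF846), C (ZNF627 to ZNF564), E (ZNF146 to ZNF573), F (ZNF283 to ZNF180), G (ZNF577 to ZNF331) and H (ZNF444 to ZNF835) have 10, 22, 28, 20, 38 and 9 such genes.

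The knockdown lists were longer, with 115864, 102454 and 87871 peaks (replicates 1, 2 and 3), against 50719, 53662 and 68342 peaks in control. Sequencing depth is unknown here and cannot be told apart from the group, and a peak caller reports more peaks at higher depth or signal. Control replicate 3 had the longest control list. A peak list also cannot tell a site open in fewer cells from a site less open in each cell.

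Sites in the clusters mostly had a peak in every library or in a single one. Of the 555 regions, 256 (46.1%) were called in all 6 libraries, against 1298 of 5518 (23.5%) in the rest of chromosome 19 and 18.2% of all regions. A further 186 (33.5%) were called in 1 library only, against 43.1% in the rest of the chromosome and 38.3% of all regions. Between these ends the clusters were thinly filled, with 5.05% of regions in 2 libraries, 4.68% in 3, 4.68% in 4 and 5.95% in 5. Regions called in 1 library had a median width of 162.5 bp and those called in all 6 had 1041 bp, against 174 and 932 bp in the rest of the chromosome. Of the 186 called once, knockdown replicates 1, 2 and 3 gave 52, 36 and 13, and control replicates 1, 2 and 3 gave 17, 37 and 31.

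**Figure D1:**
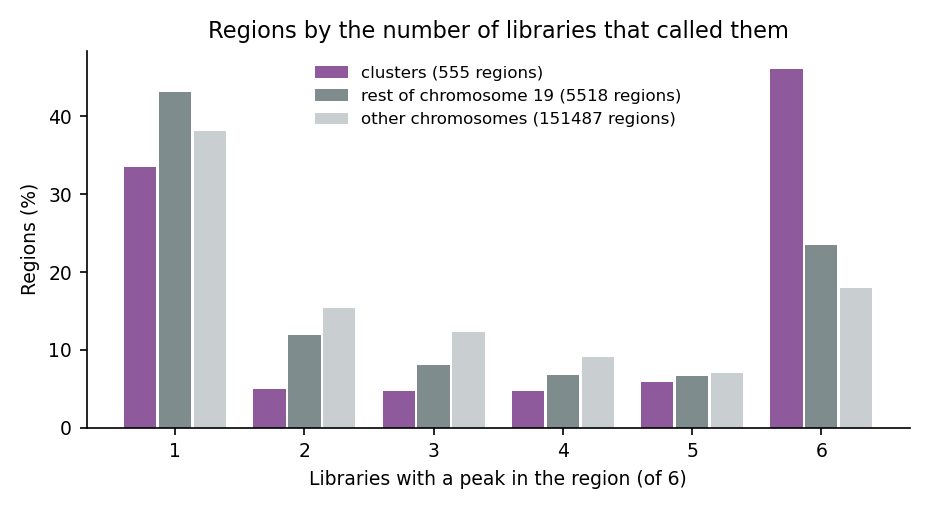
Share of regions (%) by the number of libraries, of 6, with a peak in the region, for the clusters, the rest of chromosome 19 and the other chromosomes. The clusters stand at 46.1% for all 6 libraries, against 23.5% in the rest of chromosome 19 and 18% on the other chromosomes.

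In every library a larger part of the cluster regions than of the rest of chromosome 19 was called. The knockdown libraries called 74.6, 69.9 and 62.7% of the cluster regions, against 61.3, 57.5 and 49.3% of the regions in the rest of the chromosome. The control libraries called 54.6, 59.6 and 61.4% of the cluster regions, against 35.8, 40.1 and 48.3%. The difference between clusters and rest averaged 15.1 ± 3.20 percentage points (SD, n = 6 libraries; exact sign-flip permutation test, two-sided, p = 0.0312, adjusted p over 4 such comparisons 0.0312) and was positive in 6 of 6. This is the smallest p that 6 libraries allow, and the libraries look at the same sites, so they repeat the measurement rather than the sites. The groups averaged 69.1 ± 5.99% of cluster regions in knockdown and 58.6 ± 3.55% in control without overlap (SD, n = 3 each; p = 0.1 by a two-sided exact permutation test), and with lists of equal length the difference turned to -1.91 percentage points.

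The clusters were sparse in regions of any kind but much less so in regions shared by all libraries. They held 42.3 regions per Mb against 120 in the rest of chromosome 19, and 19.5 regions called in all 6 libraries per Mb against 28.2. Within the clusters, density ran from 24.2 regions per Mb in D to 75.8 in I. For regions called in all 6 libraries it ran from 6.67 per Mb in A and 9.11 in D to 30 in C and 36.4 in I.

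The regions called in all 6 libraries can be set beside the genes of the RefSeq runs. There were 15 in B, 30 in C, 41 in D, 32 in E, 20 in F, 45 in G, 10 in H and 60 in I, against 10, 22, 36, 28, 20, 38, 9 and 43 genes named ZNF or ZFP, and 10, 22, 38, 29, 20, 45, 17 and 58 protein-coding genes of any name. The ratio of regions to ZNF or ZFP genes was 1.5 in B, 1.36 in C, 1.14 in D and 1.14 in E. It was 1 in F, 1.18 in G, 1.11 in H and 1.40 in I. The regions were counted over the whole cluster, but the genes only from the first to the last gene of the run. The intervals of both counts therefore differ, and the ratio is not a number of regions per gene of the cluster. Cluster A had 3 such regions and its run is the single gene ZNF558. The figures stand side by side as counts over stretches of unequal length, since no region was assigned to a gene start, and the same ratio was not computed for the rest of the chromosome.

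Clusters C and F consisted mostly of shared sites, and A and H mostly of sites called once. Of the 25 regions of F, 20 (80%) had a peak in each of the 6 libraries and 2 in a single one, and of the 42 of C, 30 (71.4%) and 5. Of the 21 regions of A, 3 (14.3%) were called in all 6 and 12 in 1 library, and of the 46 of H, 10 (21.7%) and 24. The other 5 clusters lay between, at 53.6% called in all 6 in B, 37.6% in D, 62.7% in E, 41.7% in G and 48% in I.

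Spacing differed several-fold between clusters. Neighbouring regions called in all 6 libraries lay a median of 143 kb apart in A, which has 3 of them, 60.6 kb in D, 44.9 kb in E, 32 kb in C, 28.4 kb in G, 26.5 kb in F, 19.2 kb in I, 15.3 kb in B and 11 kb in H. Between neighbouring regions of a cluster, the longest gap with no peak from any of the 6 libraries was 376 kb in D (chr19:22877759-23254172, hg19), followed by 227 kb in E (chr19:37342192-37568742). In the other 7 clusters it ran from 70.8 kb in A to 149 kb in G. Stretches at a cluster's edge are not counted in this, and the midpoint of the first region of I lies 193 kb inside its lower edge. The median width of regions called in all 6 libraries was 732 bp in F and between 944 and 1551 bp in the other clusters.

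Peaks in the clusters ranked high in their own lists. The caller's score is the authors' value and serves here only to rank peaks within a list, where 100 is the strongest and ties share a rank. The median percentile of cluster peaks was 85.6, 86.6 and 87.3 in the knockdown libraries and 79.4, 80.9 and 82.6 in the control libraries. In the rest of chromosome 19 it was 55.2, 55.6 and 54.6 in knockdown and 51.9, 51.9 and 51 in control. The clusters exceeded the rest by 30.4 ± 1.86 percentile points (SD, n = 6 libraries; exact sign-flip permutation test, two-sided, p = 0.0312), in 6 of 6 libraries. Peaks in the strongest 10% of a list made up 41.5, 41.6 and 44.3% of the cluster peaks in knockdown and 31.9, 30.5 and 35.6% in control, against 13.1 to 16.2% in the rest of the chromosome. Cluster peaks were also wider in 6 of 6 libraries, with medians of 622 to 688 bp in knockdown and 474 to 568 bp in control, against 342 to 353 bp in knockdown and 288 to 312 bp in control in the rest of the chromosome.

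Not all clusters shared this rank. Median percentiles lay between 78.5 and 93.1 in all 6 libraries for C, D, E, F and I, and between 66.2 and 85 for B and G. Cluster H ranked near the middle of the lists, at 48.4 to 63.8 in knockdown and 37.5 to 59.7 in control. Cluster A did so too, at 37.1 to 52 in knockdown and 14.9 to 60.1 in control, on 6 to 11 peaks per library.

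**Figure D2:**
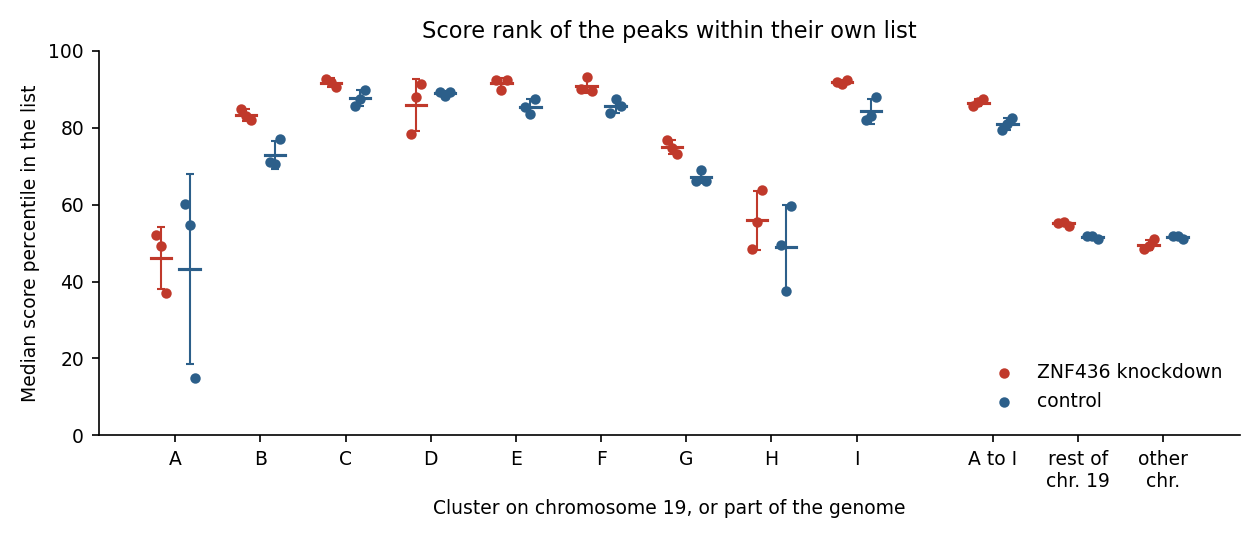
Median score percentile of the peaks within their own list, by cluster and for clusters A to I together, the rest of chromosome 19 and the other chromosomes. Points are the 3 libraries of ZNF436 knockdown (left of each pair) and of control, with mean and SD, and the clusters together lie at 79.4 to 87.3, above the rest of the chromosome at 51 to 55.6.

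Ranks within whole lists are not comparable between the groups, since the knockdown lists are longer and hold more peaks of other chromosomes. The median percentile was higher in knockdown without overlap in 6 of the 9 clusters, B, C, E, F, G and I. The rest of chromosome 19 showed this too. On the other chromosomes it was lower in knockdown without overlap, with a mean of 49.5 against 51.6 in control. How often single segments of the genome were higher without overlap was not counted. The excess of the clusters over the rest of the chromosome was 31.4 ± 1.23 points in knockdown and 29.4 ± 2.01 in control (SD, n = 3 each; p = 0.3 by a two-sided exact permutation test). This difference turned to -4.58 points with lists of equal length.

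The rank of the clusters also stood apart among shared sites. When only the 28749 regions called in all 6 libraries were ranked against each other, the 256 cluster regions had median percentiles of 76.6, 77.2 and 76.4 in knockdown and 75.6, 77.2 and 76.5 in control. The 1298 shared regions of the rest of chromosome 19 had 53.4, 54.3 and 51.2 in knockdown and 56.4, 58.5 and 54.9 in control. Averaged over libraries, the medians of all 256 were 76.7 in knockdown and 76.4 in control. Cluster D had medians of 84.6 to 89.6 over the 6 libraries, I of 77.2 to 84.9 and C of 79.1 to 84. The range of I overlapped those of both D and C. Cluster E ran from 69.2 to 84.4, F from 69.4 to 78 and A, with 3 regions, from 42.2 to 78.3. Clusters B, G and H lay between 55 and 69.3. In B the mean of the medians was 57.1 in knockdown and 64.1 in control, in G it was 65.7 in knockdown and 61.6 in control.

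The region of each cluster that ranked highest throughout the 6 lists gives a picture of these sites. In D it was chr19:24183607-24185205 (hg19, 1599 bp), whose percentile was 99.9 in each knockdown list and 99.7, 99.7 and 99.8 in the control lists. It was followed by chr19:52692100-52694438 in G, the widest region of any cluster at 2339 bp, whose percentile was 99.8, 99.8 and 99.7 in knockdown and 99.4, 99.5 and 99.6 in control. The others were chr19:44617031-44618067 in F, chr19:58912076-58913241 in I, chr19:56651669-56652657 in H, chr19:12661599-12662982 in C, chr19:37861583-37862415 in E, chr19:9878619-9879889 in B and chr19:8656526-8658180 in A. Their lowest percentile over the 6 lists was 98.6, 98.4, 98.2, 98.1, 97.9, 97.3 and 93.7 in this order. So H and A, with low medians, each also held a site in the top 10% of every list.

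The number of cluster peaks overlapped between knockdown and control. There were 434, 404 and 361 in the knockdown libraries and 326, 354 and 365 in the control libraries. Knockdown replicate 3 had fewer than control replicate 3. The means were 399.7 ± 36.7 and 348 ± 20.1 (SD, n = 3 each; exact permutation test on log2 values, two-sided, p = 0.2), a ratio of geometric means of 1.15. In the rest of chromosome 19 that ratio was 1.29 (3277 ± 310 in knockdown and 2547 ± 381 in control; exact permutation test, p = 0.2), and on the other chromosomes it was 1.80, where the groups did not overlap. With 3 libraries against 3 the smallest possible p of this test is 0.1.

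As a share of their list, the cluster peaks were lower in knockdown. Their share of the list was 0.375, 0.394 and 0.411% in knockdown and 0.643, 0.66 and 0.534% in control. The groups did not overlap, and the ratio was 0.645 (exact permutation test on log2 shares, two-sided, p = 0.1; adjusted p over 11 comparisons 0.1). The rest of chromosome 19 had 3.04, 3.30 and 3.33% in knockdown and 4.35, 4.61 and 4.33% in control, a ratio of 0.727 with the same p. The knockdown lists were 1.78 times as long by geometric means, against 1.15 times as many cluster peaks. When each list was shortened to its strongest 50719 peaks, the clusters held 310, 303 and 301 peaks in knockdown and 326, 341 and 314 in control, a ratio of shares of 0.932, and for the rest of the chromosome it was 0.813.

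**Figure D3:**
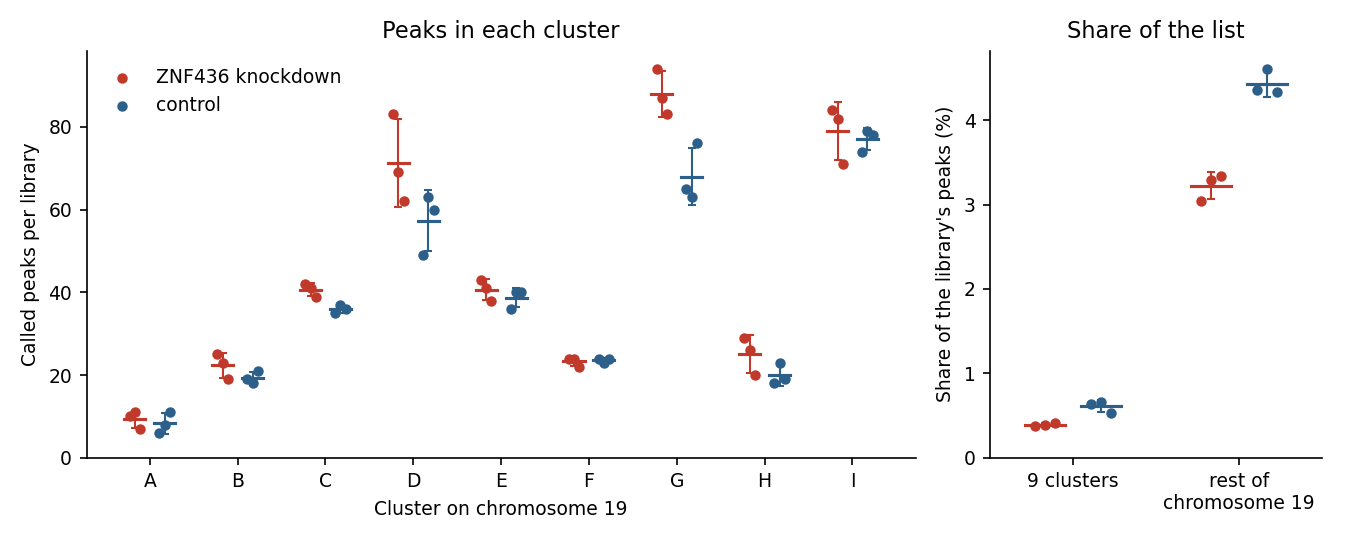
Left, called peaks per library in clusters A to I; right, share of the library's peaks (%) in the 9 clusters and in the rest of chromosome 19. Points are the 3 libraries of ZNF436 knockdown (left of each pair) and of control, with mean and SD; peak numbers of most clusters overlap between the groups, and the shares do not.

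Each cluster was then tested as 1 segment beside 1 Mb bins of the other chromosomes and pieces of at most 1 Mb of the rest of chromosome 19. Scaled to list length, all 9 clusters were lower in knockdown (limma, Benjamini-Hochberg adjusted p under 0.05), against 9.93% of the 2850 segments tested, and 0 were higher, against 19.9% of segments. In the rest of chromosome 19, 37 of 49 segments were lower and 0 higher. The clusters span 0.45 to 4.5 Mb, and the other segments at most 1 Mb, some with few peaks. These shares were not matched for segment length or peak number, on which the power of a test depends. The median log2 change was -0.66 over the clusters, -0.47 over the rest of chromosome 19 and 0.16 over all segments.

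The falls were largest in F, by 0.85 ± 0.14 on the log2 scale (SE; limma adjusted p = 0.00149), in I, by 0.80 ± 0.10 (adjusted p = 0.000467), and in E, by 0.76 ± 0.11 (adjusted p = 0.000927). They were smallest in H, by 0.52 ± 0.16 (adjusted p = 0.0227), in D, by 0.52 ± 0.10 (adjusted p = 0.00389), and in G, by 0.46 ± 0.09 (adjusted p = 0.00364). Clusters A, B and C lay between, at -0.66, -0.63 and -0.66. Relative to the median of all segments the 9 changes ran from -1.01 in F to -0.62 in G. For A the adjusted p was 0.0324, and 0.111, 0.107, 0.0807 and 0.0695 without knockdown replicates 1 and 3 and control replicates 2 and 3. For H it was 0.0785, 0.0608, 0.0912 and 0.0926 without knockdown replicates 1, 2 and 3 and control replicate 2. With any 1 library left out, the log2 change stayed between -0.78 and -0.58 in A and between -0.68 and -0.38 in H.

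These calls depended on the scaling to list length. Without scaling, 0 of 9 clusters were called in either direction, also at an unadjusted limma p under 0.05, whereas 90% of all segments were higher and 0.702% lower. The unscaled log2 changes ran from -0.02 in F to 0.37 in G, against a median of 0.99 over all segments. With lists of equal length by score, 0 clusters were lower (6.8% of 2748 segments) and 0 higher (13.5%), and the changes lay between -0.17 and 0.02 except in A at -0.66 and H at -0.39. At an unadjusted limma p under 0.05, 3 clusters were lower and 0 higher, against 282 and 705 of the 2748 segments.

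**Figure D4:**
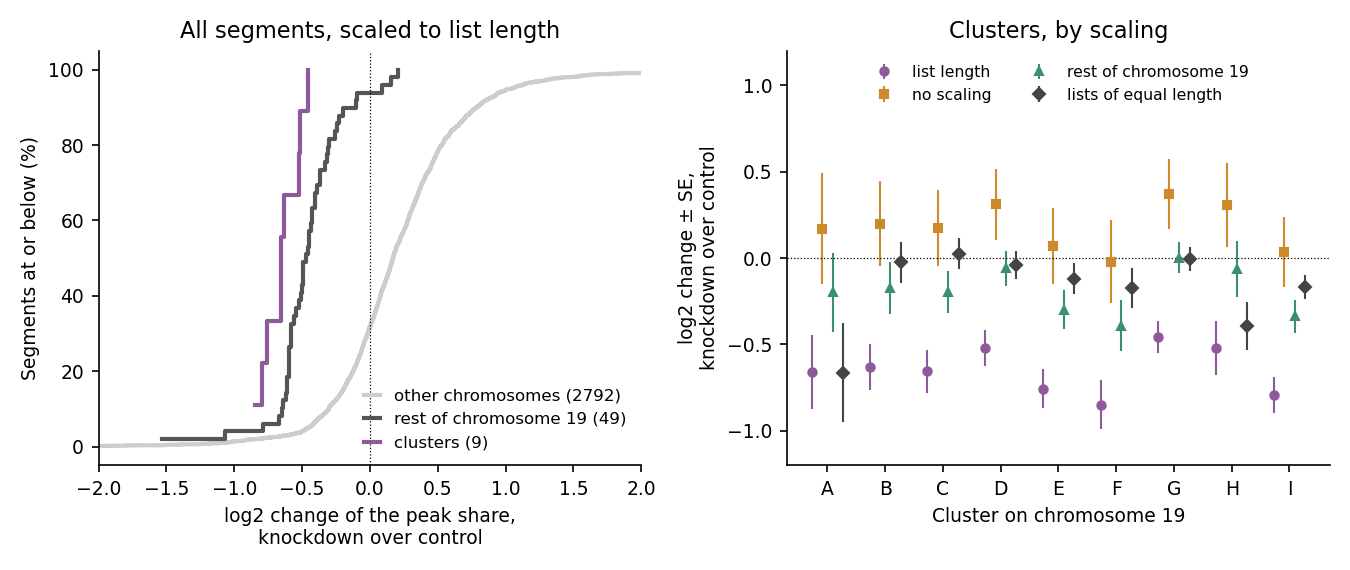
Left, cumulative share of segments (%) by log2 change of the peak share, knockdown over control, for the other chromosomes, the rest of chromosome 19 and the 9 clusters (axis cut at -2 and 2). Right, log2 change ± SE of clusters A to I from limma under 4 scalings; all 9 lie below 0 when scaled to list length, and 0 were called without scaling or with lists of equal length.

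Whether the clusters moved differently from the rest of chromosome 19 depended on how the lists were compared. As deposited, there were 12 to 12.3 cluster peaks per 100 peaks of the rest of the chromosome in knockdown, and 14.8, 14.3 and 12.3 in control replicates 1, 2 and 3. The ratio was 0.886 (exact permutation test on log2 values, two-sided, p = 0.1; adjusted p over 10 comparisons 0.2), and the highest knockdown value, 12.32, nearly met the lowest control value, 12.34. With lists of equal length the direction turned, with 17.5, 16.5 and 16.8 cluster peaks per 100 in knockdown and 14.8, 14.7 and 14.8 in control, a ratio of 1.15 (exact permutation test, p = 0.1). In limma scaled to the rest of chromosome 19, 3 clusters were lower (2% of all segments) and 0 higher (76.7%). They were E at -0.30 (adjusted p = 0.0265), F at -0.39 (adjusted p = 0.0244) and I at -0.34 (adjusted p = 0.0047).

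The clusters differed among themselves in what the knockdown lists added. In the lists as deposited, cluster G gained the most of the 9. It had 94, 87 and 83 peaks in knockdown and 65, 63 and 76 in control, without overlap. By geometric means this was a ratio of 1.30, against 1.29 in the rest of chromosome 19 and 1.80 on the other chromosomes. Of the 108 regions of G, 80.6, 78.7 and 72.2% were called in the knockdown libraries and 50.9, 49.1 and 61.1% in the control libraries. On the other chromosomes the mean share of regions called was 62.3% in knockdown and 32.8% in control. Against 100 peaks of the other 8 clusters, G had 28.3 ± 1.34 in knockdown and 24.3 ± 2.39 in control (SD, n = 3 each; exact permutation test on log2 values, two-sided, p = 0.1; adjusted p over 9 clusters 0.225). In F the numbers were nearly equal, with 24, 24 and 22 peaks in knockdown and 24, 23 and 24 in control. Cluster I also moved little, with 84, 82 and 71 in knockdown and 74, 79 and 78 in control. With lists of equal length, G no longer ranked first. The log2 change in its share of the list was then -0.007, against 0.025 in C, -0.026 in B and -0.04 in D. It was -0.12 in E, -0.17 in I, -0.18 in F, -0.40 in H and -0.74 in A.

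Against the other 8 clusters, E, F and I were lower in knockdown with no overlap between the groups. Their ratios were 0.909, 0.851 and 0.867, with the same p and adjusted p as for G. For A, B, C, D and H the groups overlapped. The largest of these was D, with 83, 69 and 62 peaks in knockdown and 49, 63 and 60 in control. Cluster C differed in raw numbers without overlap, at 42, 41 and 39 peaks in knockdown and 35, 37 and 36 in control, yet its ratio to the other clusters was 0.984.

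Sites gained by a whole group were few. In the clusters, 15 of 555 regions (2.70%) had a peak in every knockdown library and none in control, against 203 of 5518 (3.68%) in the rest of chromosome 19 and 7.72% of all regions. Set against 100 regions called in all 6 libraries, these were 5.86 in the clusters, 15.6 in the rest of the chromosome and 42.3 over the genome. With lists of equal length there were 3. By cluster the 15 were 5 of 108 regions in G, 4 of 109 in D, 3 of 51 in E, 2 of 125 in I and 1 of 46 in H. Clusters A, B, C and F, with 21, 28, 42 and 25 regions, had none. Dropping the demand for absence in control, 69 cluster regions (12.4%) were called in all 3 knockdown but not all 3 control libraries. The share was 15.2% in the rest of chromosome 19 and 21.9% of all regions. Of these 69, 25 were among the 108 regions of G and 14 among the 109 of D.

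By their lowest percentile in the 3 knockdown lists, the 15 regions stood no higher than such regions elsewhere. A lowest of 3 values lies below a region's typical rank. This lowest percentile had a median of 20.5 for the 15, against 23.2 for the 203 of the rest of chromosome 19 and 26.4 for all regions called only in knockdown. The 15 had a median width of 400 bp, against 353 bp for all regions called only in knockdown. Of the 15, 8 lay within 5000 bp of a region called in all 6 libraries. The same count was not made for regions called only in knockdown elsewhere. The highest ranking was chr19:53201375-53201722 in G, with percentiles of 65.2, 55.6 and 46.9 in the knockdown lists. It was followed by chr19:53427367-53427736 in G, 344 bp from a region called in all 6 libraries, with 52, 41.6 and 50.9. The next were chr19:58070021-58070621 in I, 152 bp from such a region, and chr19:24284504-24284822 and chr19:21210799-21211543 in D. Their lowest percentiles were 37, 34.8 and 31.2. The number of regions called only in knockdown was 28 without knockdown replicate 3 and 29 without control replicate 3, when fewer libraries had to meet the condition.

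Sites found in control alone were rarer still. Cluster E held the single region with a peak in every control library and none in knockdown, chr19:37771585-37772094 (510 bp), which is 0.180% of the cluster regions against 0.131% of all regions. Its percentiles in the control lists were 34.9, 57.4 and 32.3. Another 3 cluster regions were called in all 3 control libraries and in 1 or 2 knockdown libraries, which makes 4 (0.721%) with the one in E, against 0.887% of all regions. In the clusters 198 regions (35.7%) were called in more knockdown than control libraries, against 48.5% in the rest of chromosome 19 and 65.4% of all regions. Another 90 (16.2%) were called in more control than knockdown libraries, against 22.3% in the rest of the chromosome and 12.1% of all regions.

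Among the sites shared by all libraries, few changed their standing. The 28749 shared regions were ranked within each library over the same set, so that list length did not enter the ranks, and the ranks were compared as normal scores. Of the 256 cluster regions, 3 (1.17%) ranked higher in knockdown and 4 (1.56%) lower (limma, Benjamini-Hochberg adjusted p under 0.05), against 2.3 and 2.93% of all shared regions. The median change was 0.07 normal score units over the cluster regions, -0.07 over the shared regions of the rest of chromosome 19 and 0.0020 over all. Of the 256, 153 (59.8%) had a positive change, against 40.1% in the rest of chromosome 19 and 50.2% of all shared regions. By cluster these were 0 of 3 in A, 7 of 15 in B, 16 of 30 in C, 23 of 41 in D, 22 of 32 in E, 10 of 20 in F, 29 of 45 in G, 7 of 10 in H and 39 of 60 in I. At an unadjusted limma p under 0.05, 10.2% of the 256 were higher and 5.08% lower, against 10.5 and 9.07% of all shared regions.

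A pair of sites, one in F and one in E, kept their call with any single library left out. At chr19:44914504-44916214 in F, the widest region of that cluster (1711 bp), the rank percentile was 63.8, 83 and 75.3 in the knockdown libraries and 97, 98.8 and 94.9 in the control libraries. The groups did not overlap, and the change was -1.26 ± 0.19 normal score units (SE; limma adjusted p = 0.000651). Its adjusted p was 0.0965 by the mean score of the peaks in a region and 0.0511 with neither trended nor robust variance. At chr19:37783979-37784742 in E the percentile was 8, 11.3 and 8.27 in knockdown and 57.8, 75.5 and 52 in control, a change of -1.65 ± 0.30 (limma adjusted p = 0.00318), and the call also held in both of those alternatives. This site lay in the lowest part of the shared set in every knockdown library and above its middle in every control library. It lies 11884 bp from the region called in control only, of which it is the nearest neighbour called in all 6 libraries.

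The other 5 calls were each lost when any of several libraries was left out. They were chr19:24185756-24186235 in D (change -0.52, limma adjusted p = 0.0248), chr19:44962935-44963256 in F (-1.25, adjusted p = 0.0430), chr19:53244589-53245904 in G (0.75, adjusted p = 0.0431), and chr19:57862267-57863076 (0.70, adjusted p = 0.0250) and chr19:58321820-58322670 (1.14, adjusted p = 0.0217) in I. In all 5 the groups did not overlap, which was also a condition for naming a called region. Some shared regions that were not called showed the same. At the last of them the percentile was 62.4, 68 and 49 in knockdown and 17.8, 12.8 and 27.1 in control. Without knockdown replicate 1 the adjusted p of these 5 was 0.142, 0.0828, 0.277, 0.125 and 0.147 in the order given. Without knockdown replicate 2 it was 0.0643, 0.190, 0.105, 0.140 and 0.144, and without control replicate 2 it was 0.0895, 0.232, 0.0914, 0.124 and 0.0581. With any 1 library left out, the changes kept their direction and ran from -0.67 to -0.38, -1.49 to -0.84, 0.59 to 0.90, 0.54 to 0.84 and 1.02 to 1.28 in that order. The region in D lies beside the strongest region of that cluster and stood at 93.2, 96.1 and 98.1 in knockdown and 99, 99 and 98.7 in control.

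**Figure D5:**
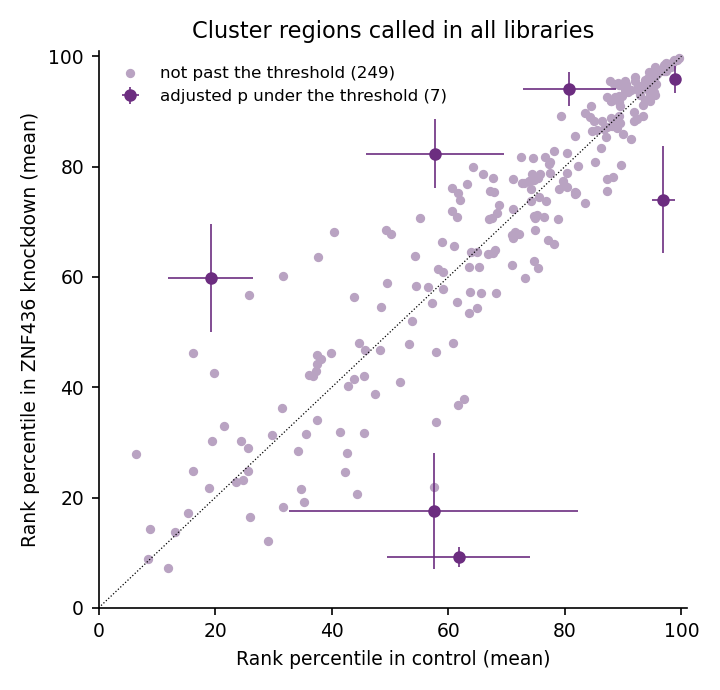
Mean rank percentile in ZNF436 knockdown (vertical) against control (horizontal) of the 256 cluster regions called in all 6 libraries, ranked among the 28749 such regions of the genome. The 7 regions past the threshold are shown with SD bars (n = 3 each), 3 above and 4 below the dotted line of equal rank, and most of the others lie along it.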

How the data were processed

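Each of the 6 libraries has 1 list of ATAC-seq peaks. Bowtie2 2.4.5, bedtools 2.30.0 and the build hg19 are named in the submitters' processing notes. The peak names start with the word MACS followed by 1 library's name, so each list was called on its own library. The sources used here do not give the caller's version or threshold, any shift for the Tn5 cut or how duplicates were handled. The deposited score is an integer with 277 to 308 different values per list and a lowest value of 20 to 25. No depth is given.

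Peaks were assigned by midpoint, and percentiles are mid-ranks within a list. limma 3.58.1 in R 4.3.3, with trended and robust variance, was run on log2((peaks + 0.5) / library total × median total) of segments with a mean of at least 2 peaks (chromosomes 1 to 22 and X), and on normal scores of ranks of regions called in all 6 libraries, each with Benjamini-Hochberg adjustment over all features and a threshold of 0.05. Both fits and the merging were tested on simulated data. The changes planted for the fits were large, so recovery of smaller changes was not tested. Single values were compared by exact permutation tests. Python 3.11.15, numpy 2.4.6 and pandas 2.3.3 were used.

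Replicates were independent differentiations per the labels. The deviations of same-numbered libraries from their group's mean had correlations of 0.03, 0.11 and 0.09. For differently numbered libraries these ran from -0.14 to 0.04. The values do not settle whether the numbers pair the libraries. The main tests left them unpaired, and the replicate number as a block was run as an alternative.

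The clusters, tests and alternatives were chosen with earlier results of these data known. Comparisons of each cluster with the other clusters, the tests of clusters against the rest of chromosome 19 over 6 libraries and the gene runs were added after values were seen. Named are the highest-ranking shared region of each cluster, up to 5 regions called in 1 group only, widest regions and longest gaps. Called shared regions were named where the values of knockdown and control did not overlap. No sequence or gene annotation of hg19 was used here.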

Additional observations from a re-analysis of the deposited data

How the results depend on the processing

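Depth is unknown and limits every count. With lists of equal length by score, 4 comparisons over the clusters together turned round. Cluster peaks against the rest of chromosome 19 changed by 0.20 on the log2 scale in place of -0.17. The share of cluster regions called changed by -1.91 percentage points in place of 10.5, and its excess over the rest of the chromosome by 5.90 in place of -4.14. The excess in median percentile changed by -4.58 in place of 2.03. In the lists as deposited this excess changed by -4.96 when only peaks of regions called in all 6 libraries were taken. Their percentiles were still those within the whole list. The cause was not tested. The log2 change in share of the list stayed between -0.73 and -0.10 under all alternatives.

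The 9 clusters lower in limma became 0 without scaling, 0 with lists of equal length and 3 scaled to the rest of chromosome 19. The log2 change turned to 0.17, 0.20, 0.17, 0.31, 0.072, 0.37, 0.31 and 0.033 in A, B, C, D, E, G, H and I without scaling, to 0.025 in C with lists of equal length, where its share of the list changed by 0.025, and to 0.0027 in G scaled to the rest of the chromosome. Against the rest of the chromosome, with lists of equal length, B, C, D, E, F and I turned to 0.27, 0.32, 0.26, 0.18, 0.12 and 0.13. A turned to 0.027 with edges moved inward and G to -0.037 with the strongest 50% of each list. With 1 library left out, D ran from -0.13 to 0.031, G from -0.032 to 0.073 and H from -0.20 to 0.064.

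Regions called only in knockdown numbered 33 when 2 of 3 libraries sufficed and 3 with lists of equal length (15 to 29 with 1 library left out). Those called only in control numbered 2, 2 and 0 with 2 of 3 libraries, equal lists and the strongest 50% (1 to 2 with 1 left out). The 4 shared regions ranked lower became 1 by mean score, 2 by percentile ranks and 1 with neither trend nor robust variance (2 to 5 with 1 library left out). The 3 ranked higher became 1 by percentile ranks and 0 with neither trend nor robust variance (0 to 5). With the replicate number as a block, 5 were ranked higher and 5 lower and 9 clusters were lower; the block changed no other call. Clusters lower numbered 7 to 9 with 1 library left out.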

Other observations

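The share of sites called in every library differed across the edges of the clusters, with no test. Within 50 kb inside an edge there were 46 regions, and 21 of them (45.7%) had a peak in each of the 6 libraries. Within 50 kb outside there were 86, and 19 of them (22.1%) did. The 120 kb between clusters H and I, where the imprinted gene PEG3 is known to lie, held 0 regions in any of the 6 lists. The stretch without peaks also reached into both clusters. The nearest region midpoint lay 97.4 kb inside the upper edge of H and 193 kb inside the lower edge of I.

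In 6 of 9 clusters the widest region was not the highest-ranking one. In E the widest was chr19:38145171-38147331 (2161 bp), whose lowest percentile over the 6 lists was 86.4, and in C it was chr19:12250404-12252360 (1957 bp), with 89.8. In A, D and G the widest region was also the highest-ranking.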
